A study of Homo sapiens with 13 samples.

Results

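The genes described here carry the names of voltage-gated potassium, sodium and calcium channel families. They were chosen by symbol (KCN followed by a letter from A to V and a number, SCN with an A or B ending, CACNA, CACNB, CACNG and CACNA2D) and by a mean of at least 1 CPM (counts scaled to the library total) over the 7 libraries of a time series of BMP-treated human pluripotent stem cells. Of 123 human genes with such a name, 73 reached that level, among 15976 genes that reached it in all. By family, the 73 members comprised 25 of 40 pore-forming genes of the Kv type (KCNA to KCND, KCNF to KCNH, KCNQ, KCNS and KCNV), 2 of 5 KCNE genes, 8 of 16 KCNJ genes, 5 of 15 KCNK genes, 6 of 7 KCNN, KCNT and KCNU genes, 8 of 10 CACNA1 genes, 12 of 16 CACNA2D, CACNB and CACNG genes, 5 of 10 SCN genes for pore-forming subunits and 2 of 4 SCN genes for auxiliary subunits. The levels that chose the members are therefore a description: KCNJ10 at a mean of 1.31 CPM and KCNB2 at 1.04 CPM lay just inside the minimum, and KCNK15 at 0.848 CPM and KCNH3 at 0.809 CPM just outside. Of the 50 genes under the minimum, 5 had no count in any of the 7 libraries and 15 reached 1 CPM in at least 1 library.

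Voltage-gated channels are membrane proteins that open a selective pore when the voltage across the membrane changes. Sodium channels (SCN) carry the rising phase of action potentials in nerve and muscle, potassium channels of the Kv type repolarize the membrane, and calcium channels (CACNA1 pores with CACNB and CACNA2D subunits) couple depolarization to calcium entry. The name pattern also took in channels that voltage does not open: the KCNJ inward rectifiers, the KCNK leak channels, which set the resting potential, and the KCNN and KCNT channels, which are opened by internal calcium or sodium. Of the CACNG genes, CACNG4, CACNG5, CACNG7 and CACNG8 are best known as auxiliary subunits of AMPA-type glutamate receptors. The group is therefore called channel genes below. Their best known sites of expression are neurons and muscle, whereas the cells studied here were pluripotent cells that moved toward an amnion-like state.

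All libraries came from GFP::SMAD4 RUES2 cells, an established human embryonic stem cell line in which SMAD4, the partner of the activated BMP effectors SMAD1, SMAD5 and SMAD9, carries a fluorescent tag. The time series consisted of a pair of 0 h libraries and of 1 library for each later time (4, 12, 20, 28 and 42 h) with 100 ng/mL BMP4 and 5 µM IWP2, an inhibitor of Wnt secretion, in the presence of a ROCK inhibitor (RI). The labels of the 0 h libraries name this treatment as well, and they were read as cells collected when it began. The dose-response had 1 library each at 5 h with BMP4, IWP2 and RI plus 0, 10, 30, 100 or 300 nM of LDN-193189 (LDN), an inhibitor of the BMP receptors, and 1 library of untreated cells in mTeSR, the maintenance medium. The time series was sequenced from total RNA depleted of ribosomal RNA and the dose-response from polyA RNA, so levels were not compared across the experiments. Nothing states that the 0 h libraries came from separate cultures, no other condition had a replicate, and the p-values below measure the scatter of single libraries about a fitted line or curve.

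Library totals ran from 37957385 to 71333471 counts in the time series and from 15600931 (untreated) to 33989998 in the dose-response. In CPM, 3 counts, taken as the floor for counting error, amounted to between 0.0421 and 0.0790 in the first and between 0.0883 and 0.192 in the second. The share of counts on mitochondrial genes was 7.60% and 4.29% at 0 h, 2.01% to 4.23% later, 4.22% to 4.49% in the 5 libraries with BMP4 at 5 h and 7.89% in untreated cells. The summed level of 6 amnion markers went from 3.53 and 3.74 CPM at 0 h to 4371 CPM at 42 h. That of 5 pluripotency markers went from 2205 and 2851 CPM to 1170 CPM. At 42 h most of it was POU5F1 (1003 and 1721 CPM at 0 h, 1145 CPM at 42 h). SOX2 went from 389 and 375 to 11.6 CPM and NANOG from 146 and 116 to 1.08 CPM. PRDM14 went from 53.7 and 63.9 to 0.196 CPM and TDGF1 from 613 and 576 to 11.7 CPM. Of the other cell types that express many channel genes, 8 neuron markers summed to 328 and 386 CPM at 0 h and 84.2 CPM at 42 h, most of it TUBB3 (250 and 323 CPM at 0 h), while 6 muscle markers summed to 68.5 and 96.7 CPM and then 16.5 CPM, most of it TTN, with MYH7 and MYL2 at or below 0.0330 CPM in every time-series library. Another muscle marker, MYH6, went from 0.211 and 0.491 CPM at 0 h to 3.20 CPM at 28 h and 2.52 CPM at 42 h. Of the neuron markers, only SNAP25 was higher at 42 h (2.88 CPM) than at 0 h (0.606 and 0.421 CPM). In the time series, 3 endothelial markers summed to at most 14.5 CPM. Of 3 fibroblast markers, DCN stayed at or below 0.0221 CPM. The others were present, COL1A1 with 181 and 154 CPM at 0 h and 83.0 CPM at 42 h, and COL1A2 with 57.8 and 72.1 CPM and then 77.6 CPM.

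Of the 73 members, 46 had 1 CPM or more in all 7 libraries, those at 0 h included, and 7 had under 1 CPM at 0 h. The mean over these libraries chose the members, so these counts are a description. The share over all genes is not given here. Per length of transcript (FPKM, fragments scaled to transcript length and depth), members with high means over the time series included KCNG1 and CACNG4 with 24.4 FPKM each, CACNG7 with 21.7, KCNG3 with 20.6 and KCNC4 with 20.5 FPKM. KCNG1 encodes a subunit that modifies other Kv pores. It had 15.5 and 21.9 CPM at 0 h (mean 18.7 ± 4.52, SD, n = 2) and then 22.1, 33.5, 60.8, 46.8 and 27.1 CPM at 4, 12, 20, 28 and 42 h, past the curve described below (edgeR adjusted p = 0.00127). Apart from the markers and the means at the minimum above, all CPM values of single genes are scaled by the trimmed mean of M-values (TMM). All later libraries of KCNG1 were above both 0 h libraries, the 4 h library only just. At 42 h the order of levels had changed, with CACNG4 at 62.6 FPKM and KCNK12 at 57.9 FPKM on top, from 3.02 and 2.67 FPKM at 0 h.

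Most channel genes passed a test of change over the 42 h, and more of them passed a curve than a line. A linear trend with time (edgeR quasi-likelihood test, Benjamini-Hochberg adjusted p under 0.05 over 15976 genes) was passed by 29 of 73 members, of which 19 fell and 10 rose, and by 36.7% of all genes tested. Of all genes, 17.5% fell and 19.2% rose, against 26.0% and 13.7% of the members. A curve with a linear and a squared term in hours, which gives no direction, was passed by 59 members (80.8%), all 29 of the trend and 30 more, beside 47.7% of all genes tested. Both terms were tested together and the squared term not alone, so a straight change can pass as well. The higher count does not by itself show that levels bent. The median fitted change from 0 to 42 h was -0.79 on the log2 scale over the members and -0.00 over all genes tested. In bulk RNA, fewer cells that express a gene and less RNA per cell cannot be told apart. Among the members, 7 had under 1 CPM at 0 h and entered the list through a later level, so that a higher later level of these 7, KCNK13 and KCNV1 among them, follows from how they were chosen.

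Most channel genes were highest between the first and the last time point. In 53 of 73 members the highest value was at 4, 12, 20 or 28 h (22, 11, 15 and 5 members), against 7 at 0 h and 13 at 42 h. Of all genes tested, 24.1%, 16.7%, 6.89%, 12.3%, 6.75% and 33.3% were highest at these times in order, from 0 h to 42 h. Members that passed the curve and were highest at one of the inner times numbered 45 (61.6%), beside 17.4% of all genes tested. The lowest value was at 42 h in 45 members (61.6%; 33.2% of all genes) and at 0 h in 19 (26.0%; 22.0% of all genes). These counts describe single libraries, and leaving out the 42 h library brought the members past the curve from 59 to 34 and those that fell along the line from 19 to 9. The shares of all genes without that library are not given here. Whether an excess of members over all genes remained can thus not be read from these counts.

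**Figure D1:**
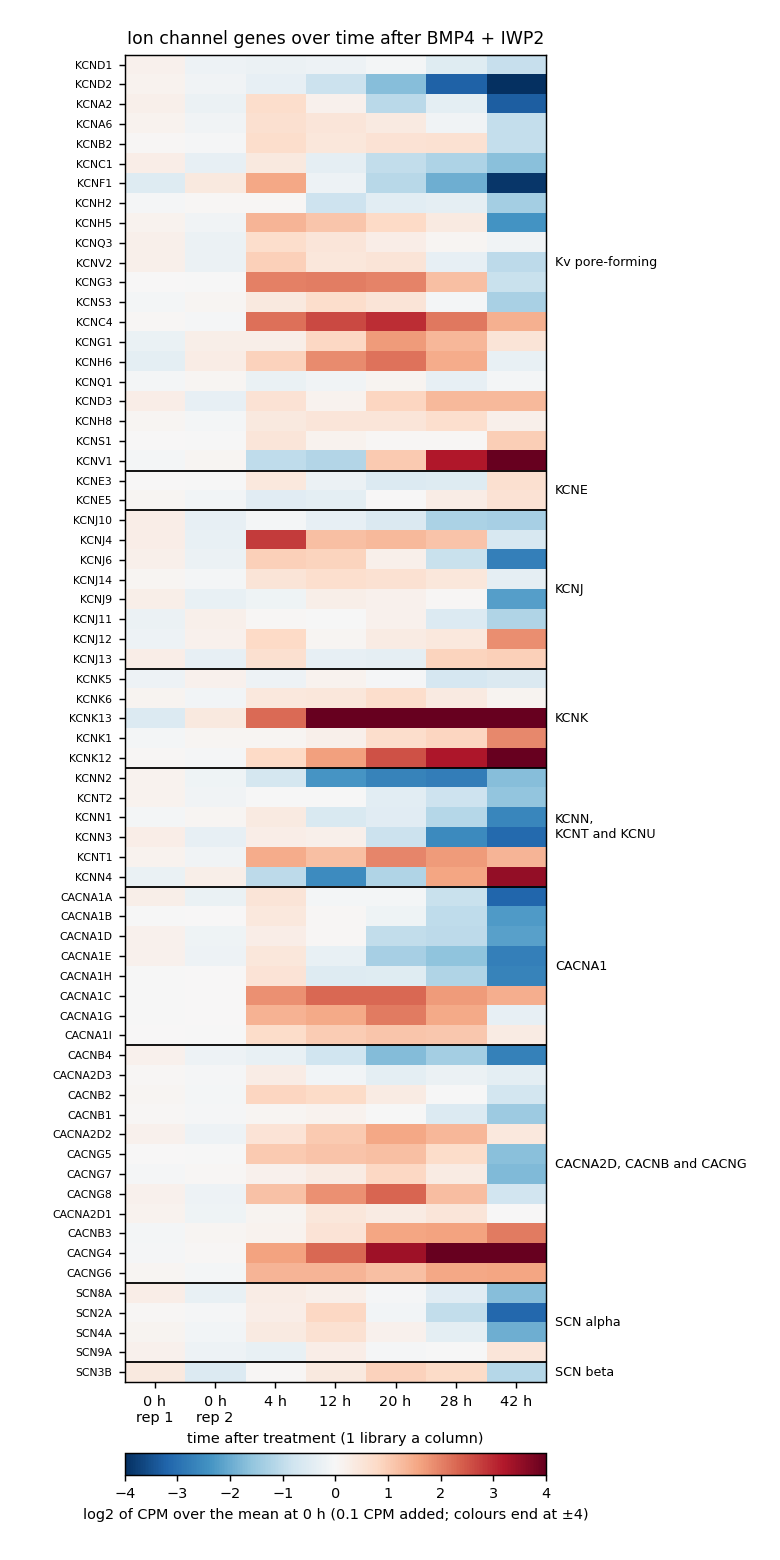
Heat map of 67 of the 73 channel genes, 1 row a gene grouped by family and 1 column a library of the time series. The colour gives the log2 of TMM-scaled CPM over the mean at 0 h with 0.1 CPM added, red for higher and blue for lower. In most rows red lies at the inner times and blue at 42 h, and KCNK12, KCNK13, CACNG4, KCNV1 and KCNN4 are the darkest red rows at 42 h.

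The 42 h library was also compared directly with the 0 h mean. On the log2 scale with 0.1 CPM added, 32 members were below -1 and 14 above 1, where 15.0% and 15.4% of all genes tested lay. The range ran from -4.83 for KCND2 to 6.22 for KCNK13, and the median was -0.75 against -0.01 over all genes. Scaling by library totals instead of TMM moved the median of all genes to -0.24 and that of the members to -0.98, so the members' median relative to all genes hardly moved. These ratios have no test. Between the 0 h libraries, no member differed by more than 0.946 on the log2 scale, with an SD of 0.354 over the members and 0.422 over all genes.

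The pore-forming calcium channel genes split by time of expression. All 8 CACNA1 members passed the curve, and 5 of them fell along the line, with no riser. The 5 were CACNA1A and CACNA1B, pores of the P/Q-type and N-type channels of nerve terminals, CACNA1D of the L-type, CACNA1E of the R-type and CACNA1H of the T-type. CACNA1A had 30.7 and 21.8 CPM at 0 h and then 37.9, 25.1, 24.9, 14.3 and 2.82 CPM at 4, 12, 20, 28 and 42 h, a fitted change of -2.68 ± 0.73 (SE, log2 over 42 h; edgeR adjusted p = 0.0218). Its level was highest at 4 h, above both 0 h libraries, and lowest at 42 h. At 12 and 20 h it lay between the 0 h libraries. The trend was not passed without the 42 h library (edgeR adjusted p = 0.12) or the 4 h library (0.052). CACNA1E, the least abundant per length of the 8, had 2.89 and 2.22 CPM at 0 h and then 3.52, 2.07, 0.947, 0.768 and 0.303 CPM at 4, 12, 20, 28 and 42 h (-3.25 ± 0.46, edgeR adjusted p = 0.00139). CACNA1H went from 51.9 and 53.7 CPM to 77.6 at 4 h and 8.19 CPM at 42 h (-2.65 ± 0.43, edgeR adjusted p = 0.00239). CACNA1D went from 3.09 and 2.44 to 0.530 CPM (-2.40 ± 0.44, edgeR adjusted p = 0.00417). With time entered as log2 of hours plus 1, CACNA1A, CACNA1D, CACNA1E and CACNA1H did not pass (edgeR adjusted p = 0.30, 0.12, 0.078 and 0.11).

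The other 3 CACNA1 genes passed the curve and not the line. CACNA1G, a T-type pore with the highest mean FPKM of the family (6.49), had 17.6 and 17.7 CPM at 0 h and then 46.5, 50.3, 74.7, 50.9 and 14.2 CPM at 4, 12, 20, 28 and 42 h. Its 4 inner libraries all lay above both 0 h libraries, and the 42 h library lay below them. CACNA1C, the L-type pore of heart and smooth muscle, had 2.31 and 2.38 CPM at 0 h and then 8.59, 12.0, 11.9, 7.81 and 6.54 CPM at 4, 12, 20, 28 and 42 h, so that every later library lay above both 0 h libraries. CACNA1I was between 6.20 and 8.13 CPM from 4 to 28 h, against 3.74 and 3.66 CPM at 0 h and 4.63 CPM at 42 h.

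Among the auxiliary subunits, CACNG4 had the largest change. This AMPA receptor subunit gene had 9.54 and 10.0 CPM at 0 h (9.77 ± 0.32, SD, n = 2) and then 30.2, 48.7, 103, 158 and 241 CPM at 4, 12, 20, 28 and 42 h. Every library was above the one before, and the fitted change was 4.63 ± 0.59 (edgeR adjusted p = 0.000809). Its neighbour CACNG5, which starts the pair on chromosome 17 (GRCh38, 66835117 to 66894751, against 66964707 to 67033398 for CACNG4, with 69956 bases between them), had 4.45 and 4.38 CPM at 0 h, 9.20 to 10.4 CPM from 4 to 20 h, 7.36 at 28 h and 1.3 CPM at 42 h. The neighbours thus shared the higher level at 4 h and parted by 42 h. CACNG7, CACNG8 and CACNG6 lie in this order on chromosome 19 (53909278 to 54012666), and their 42 h levels were 12.8, 6.03 and 2.61 CPM against 43.9, 10.2 and 0.806 CPM at 0 h. CACNG8 reached 52.2 CPM at 20 h and CACNG7 78.3 CPM at 20 h, both past the curve, while CACNG6 passed neither test.

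The CACNB genes, whose products bring the pore to the membrane, moved in different directions. CACNB3 rose, from 6.74 and 7.38 CPM at 0 h to 30.4 CPM at 42 h (2.31 ± 0.27, edgeR adjusted p = 0.000522). CACNB4 fell, with 3.87 and 2.96 CPM at 0 h and then 2.76, 1.93, 0.964, 1.27 and 0.435 CPM at 4, 12, 20, 28 and 42 h (-2.76 ± 0.40, edgeR adjusted p = 0.00155). CACNB1 also fell, from 25.6 and 24.0 to 8.91 CPM (edgeR adjusted p = 0.021, and 0.27 without the 42 h library), whereas CACNB2 passed the curve alone with its highest value at 4 h (7.50 CPM). CACNB3 and CACNB4 moved apart over the same hours, and at 42 h CACNB3 was the most abundant CACNB gene with 11.6 FPKM. Of the CACNA2D genes, which assist in trafficking, CACNA2D2 passed the curve with a highest value of 93.5 CPM at 20 h, and CACNA2D1 and CACNA2D3 passed neither test.

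**Figure D2:**
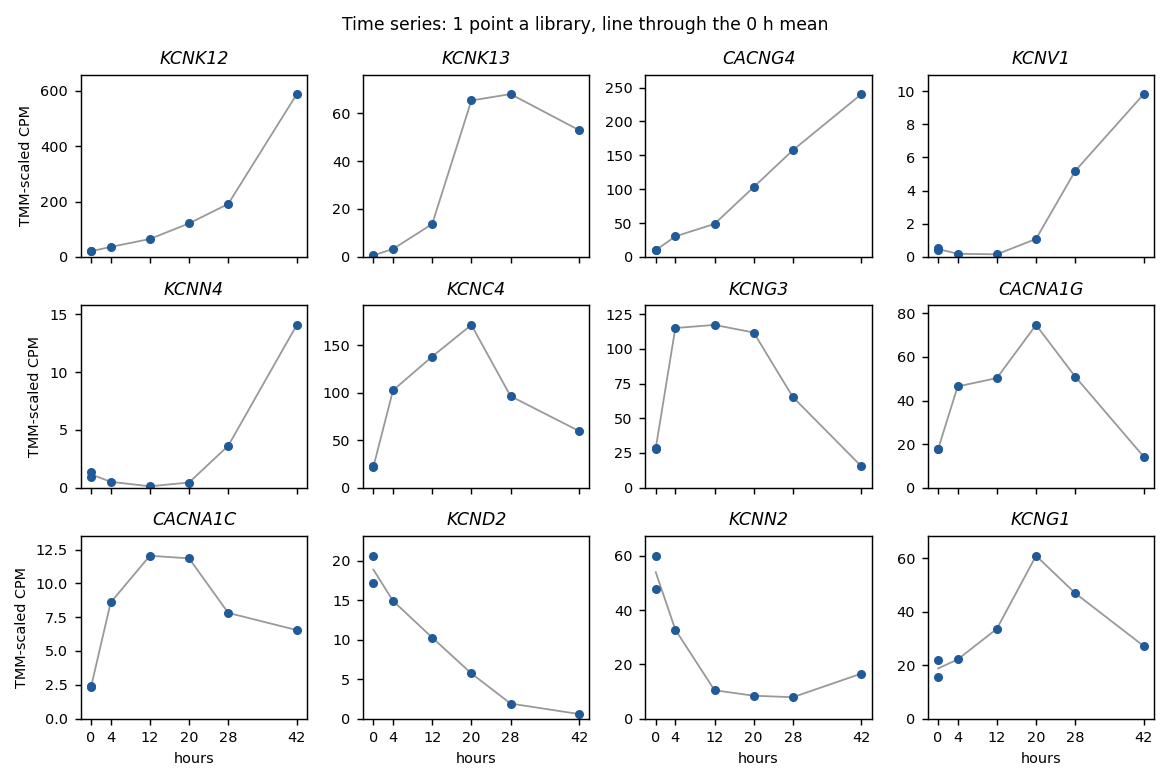
Levels of 12 channel genes against hours after BMP4 and IWP2, in TMM-scaled CPM on linear axes that start at 0, 1 point a library and a line through the 0 h mean. KCNK12 and CACNG4 are highest at 42 h (588 and 241 CPM), KCNC4, KCNG3 and CACNA1G are highest at an inner time, and KCND2 declines in every library after 0 h.

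Kv-type genes made up the largest family, and 21 of its 25 members passed the curve, 7 of them falling and 3 rising along the line. KCND2, a pore of the fast A-type current, had the most precise fall of the family. It had 20.6 and 17.1 CPM at 0 h and then 14.9, 10.3, 5.72, 1.90 and 0.567 CPM at 4, 12, 20, 28 and 42 h (-4.96 ± 0.41, edgeR adjusted p = 0.000117). Each library was below all earlier ones. The other KCND genes changed less: KCND3 rose from 1.43 and 0.931 to 3.03 CPM (1.43 ± 0.39, edgeR adjusted p = 0.0229, and 0.057 or 0.055 without the 28 h or the 42 h library) and KCND1 fell from 21.5 and 16.3 to 9.83 CPM (-0.79 ± 0.25, edgeR adjusted p = 0.0367).

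KCNF1, which encodes a subunit that forms channels only with other Kv pores, had 1.53 and 2.94 CPM at 0 h and then 6.67, 1.93, 0.981, 0.506 and 0.0567 CPM at 4, 12, 20, 28 and 42 h (-5.16 ± 1.08, edgeR adjusted p = 0.00754). The 4 h library was above both 0 h libraries, and the 42 h library was near the floor of 3 counts and carried the call (edgeR adjusted p = 0.054 without it). KCNA2, a delayed rectifier of axons, had 1.90 and 1.38 CPM at 0 h and then 2.76, 1.86, 0.731, 1.22 and 0.0756 CPM at 4, 12, 20, 28 and 42 h (-2.94 ± 0.99, edgeR adjusted p = 0.0482). This fall is the least firm of those given in full: it was lost when 0 h replicate 1 or the 4, 12, 20 or 42 h library was left out (edgeR adjusted p from 0.064 to 0.24). KCNH2, the hERG channel that repolarizes the heart, fell from 13.8 and 14.7 to 5.47 CPM, a call lost without either 0 h library, the 4 h or the 42 h library (edgeR adjusted p from 0.055 to 0.25). KCNC1, a fast delayed rectifier, fell from 3.04 and 1.96 to 0.719 CPM.

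KCNV1 went the other way. It encodes a silent modifier of other Kv channels and had 0.442 and 0.507 CPM at 0 h and then 0.184, 0.154, 1.08, 5.18 and 9.82 CPM at 4, 12, 20, 28 and 42 h (5.10 ± 0.87, edgeR adjusted p = 0.00313, and 0.062 with log2 of hours plus 1). It reached the mean of 1 CPM only through the 28 and 42 h libraries, so its rise rests on the values that chose it. The level was lower at 4 and 12 h than in either 0 h library before it became the highest.

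KCNC4 and KCNG3 were highest at the inner times. They are given in full, like CACNA1G, CACNA1C and KCNN2, because of their dose-response and were chosen after their values were seen. KCNC4, another pore gene of the KCNC group, had 22.6 and 21.5 CPM at 0 h and then 102, 138, 171, 96.3 and 59.6 CPM at 4, 12, 20, 28 and 42 h. KCNG3, a silent modifier like KCNG1, had 28.6 and 28.2 CPM at 0 h and then 115, 117, 112, 65.3 and 15.3 CPM at 4, 12, 20, 28 and 42 h. Both passed the curve (edgeR adjusted p = 0.0116 and 0.00420) and not the line (0.53 and 0.675). KCNC4 was still above both 0 h libraries at 42 h, and KCNG3 was below them.

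The KCNK leak channels included KCNK13, which had the largest fitted rise of the members, and KCNK12. KCNK12 (chromosome 2, 47509290 to 47570985, minus strand) had 21.2 and 19.6 CPM at 0 h (20.4 ± 1.18, SD, n = 2) and then 35.8, 64.5, 121, 191 and 588 CPM at 4, 12, 20, 28 and 42 h. Each library was above the one before, and the fitted change of 4.74 ± 0.19 (edgeR adjusted p = 9.03e-06) had the smallest error relative to its size among the 29 calls. KCNK13 (chromosome 14, 90061994 to 90185853), the closest relative of KCNK12, had 0.390 and 0.835 CPM at 0 h and then 3.29, 13.7, 65.3, 68.0 and 52.9 CPM at 4, 12, 20, 28 and 42 h (7.68 ± 1.93, edgeR adjusted p = 0.0164). It reached its plateau by 20 h, when KCNK12 was at 121 of its final 588 CPM. The call for KCNK13 along the line was lost without either 0 h library (edgeR adjusted p = 0.053 and 0.054), and its curve was passed at 6.83e-06. KCNK13 met the minimum through its later libraries, so its rise rests on the values that chose it. KCNK1 rose from 8.24 and 9.16 to 33.2 CPM (1.83 ± 0.21, edgeR adjusted p = 0.000473), and KCNK5 and KCNK6 passed neither test.

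KCNK12 made up a large share of the channel counts at the end. The members summed to 841 and 781 CPM at 0 h and then 1207, 1277, 1597, 1384 and 1492 CPM at 4, 12, 20, 28 and 42 h. Without KCNK12, the sum was 820 and 762 CPM at 0 h, 1476 CPM at 20 h and 904 CPM at 42 h. The KCNK family alone went from 78.5 and 87.9 CPM to 714 CPM, while the CACNA1 family went from 140 and 133 CPM to 221 CPM at 4 h and 42.9 CPM at 42 h.

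**Figure D3:**
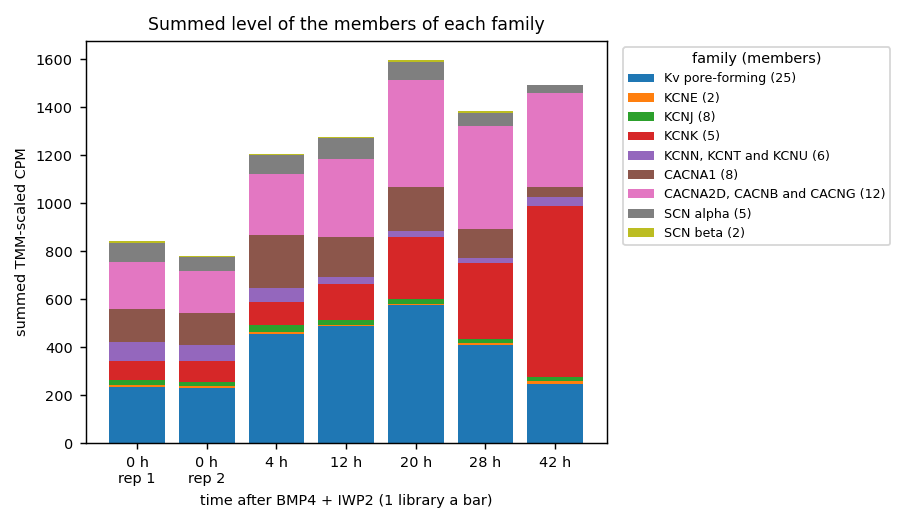
Summed level of the members of each channel family in each time-series library, as stacked bars in TMM-scaled CPM from 0. The whole bar is highest at 20 h (1597 CPM), and the KCNK part grows from 78.5 and 87.9 CPM at 0 h to 714 CPM at 42 h.

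Of the KCNJ inward rectifiers, 6 of 8 passed the curve, 1 fell and 1 rose. KCNJ6, a subunit of the potassium channel gated by G proteins, had 1.95 and 1.41 CPM at 0 h and then 3.37, 3.23, 1.94, 0.855 and 0.170 CPM at 4, 12, 20, 28 and 42 h. It was higher at 4 and 12 h than at 0 h and lowest at 42 h, and it passed the curve (edgeR adjusted p = 0.00115) and not the line (0.0591). KCNJ10, an astrocyte and kidney channel, fell from 2.16 and 1.37 to 0.643 CPM (-1.59 ± 0.37, edgeR adjusted p = 0.0119, and 0.058 without the 42 h library). The rise of KCNJ12, from 1.82 and 2.38 to 7.85 CPM, is uncertain, since a near-identical copy (KCNJ18) can share its reads and since the call was lost without either 0 h library, the 12 h or the 42 h library (edgeR adjusted p from 0.057 to 0.79). KCNJ11, the ATP-sensitive channel of pancreatic beta cells and the most abundant KCNJ gene per length (mean 2.29 FPKM), had 5.88 and 7.86 CPM at 0 h and 2.93 CPM at 42 h and passed the curve alone.

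All 6 KCNN and KCNT members passed the curve. KCNN1, KCNN2 and KCNN3 encode small-conductance channels opened by calcium, and KCNN4 the intermediate-conductance one of blood cells and epithelia. KCNN3 fell, with 2.91 and 1.90 CPM at 0 h and then 2.88, 2.77, 1.28, 0.331 and 0.189 CPM at 4, 12, 20, 28 and 42 h (-3.88 ± 0.77, edgeR adjusted p = 0.00603, and 0.057 without the 42 h library). KCNN1 fell from 6.79 and 7.67 to 1.10 CPM (-2.53 ± 0.45, edgeR adjusted p = 0.00357, and 0.11 with log2 of hours plus 1). KCNN2, the most abundant of the family per length at 0 h, had 60.0 and 47.9 CPM at 0 h and then 32.8, 10.4, 8.41, 7.87 and 16.6 CPM at 4, 12, 20, 28 and 42 h. It was lower than at 0 h in every later library, and it passed the curve (edgeR adjusted p = 1.29e-05) and not the line (0.0641). KCNN4 rose, with 0.936 and 1.37 CPM at 0 h and then 0.511, 0.120, 0.449, 3.63 and 14.1 CPM at 4, 12, 20, 28 and 42 h (3.73 ± 1.05, edgeR adjusted p = 0.0253). Like KCNV1, it was lowest at 12 h and highest at 42 h, and its call was lost without 0 h replicate 1, the 4 h or the 42 h library (edgeR adjusted p = 0.054, 0.059 and 0.35). At 42 h, KCNN4 had 7.66 FPKM and KCNN2 5.89 FPKM, where at 0 h they had 0.865 and 22.9 FPKM.

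Sodium channel genes were mostly lowest at 42 h. Of the 5 pore-forming members, 4 passed the curve and only SCN8A fell along the line, from 39.2 and 26.6 CPM at 0 h to 10.1 CPM at 42 h (-1.51 ± 0.44, edgeR adjusted p = 0.0276), a call that was lost without 0 h replicate 1, the 4 h or the 42 h library (edgeR adjusted p = 0.062, 0.061 and 0.31). SCN8A encodes a main sodium channel of brain neurons and was the most abundant of the family per length (mean 5.21 FPKM). SCN2A, another neuronal pore, had 1.64 and 1.56 CPM at 0 h and then 1.94, 2.94, 1.48, 0.768 and 0.0946 CPM at 4, 12, 20, 28 and 42 h, past the curve (edgeR adjusted p = 0.000264) and not the line (0.0606). SCN4A, the channel of skeletal muscle, had 3.39 CPM at 42 h against a mean of 13.3 CPM at 0 h and passed the curve alone. SCN2A, SCN4A and SCN8A were highest at 4 or 12 h and lowest at 42 h. SCN9A, a channel of sensory neurons, was highest at 42 h (9.57 CPM) and passed neither test. The auxiliary subunit SCN3B passed the curve, with its highest value of 6.50 CPM at 20 h and its lowest of 1.49 CPM at 42 h. The KCNE subunits KCNE3 and KCNE5 (means of 0.884 and 4.95 FPKM) passed neither test.

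In all, 14 members passed neither time test: CACNA2D1, CACNA2D3, CACNG6, KCNE3, KCNE5, KCNH8, KCNJ4, KCNJ13, KCNK5, KCNK6, KCNQ1, KCNQ3, KCNS1 and SCN9A. The ratio of the highest to the lowest level in this set was at most 3.24 apart from KCNJ4, for which it was 13.5 with 4.85 CPM in the 4 h library alone. Missing the threshold does not show that their levels were constant.

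Differences from 0 h were already present in the 4 h library. At 4 h, 14 of 73 members were more than 1 above the 0 h mean on the log2 scale and 2 more than 1 below it, beside 4.88% and 0.926% of all genes tested. The largest values were 2.79 for KCNJ4, 2.25 for KCNK13, 2.21 for KCNC4, 2.01 for KCNG3 and 1.83 for CACNA1C. Of the 14, KCNJ4, KCNK13, CACNG6 and KCNT1 were under 1 CPM at 0 h and entered the list through later levels. A higher level in them follows in part from how they were chosen. The members below -1 were KCNN4 (-1.04) and KCNV1 (-1.02), the same pair that was highest at 42 h after a low at 12 h. The median of the members was 0.43, against -0.01 over all genes. This comparison was added after the data were seen and has 1 library at 4 h, so it has no test.

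The dose-response addressed which of these genes follow the strength of BMP signaling. It was fitted over the 5 libraries with BMP4 against the LDN dose as evenly spaced steps. A negative value is a fall as LDN increases, and thus a higher level with more BMP signaling among these 5 libraries. The untreated library was not in this fit. Of the 73 members, 61 had a mean of 1 CPM in this experiment and 12 were not tested. Of the 61, 17 fell with LDN and 8 rose (edgeR adjusted p under 0.05), 27.9% and 13.1%, beside 10.9% and 10.4% of all 14877 genes tested. The median fitted change from 0 to 300 nM was -0.10 over the members and -0.00 over all genes. Entering the dose in nM instead of steps left 4 that fell and 0 that rose, with 14 and 7 members at an unadjusted p under 0.05, while DESeq2 called 14 and 5. The shares of all genes under these alternatives are not given here.

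**Figure D4:**
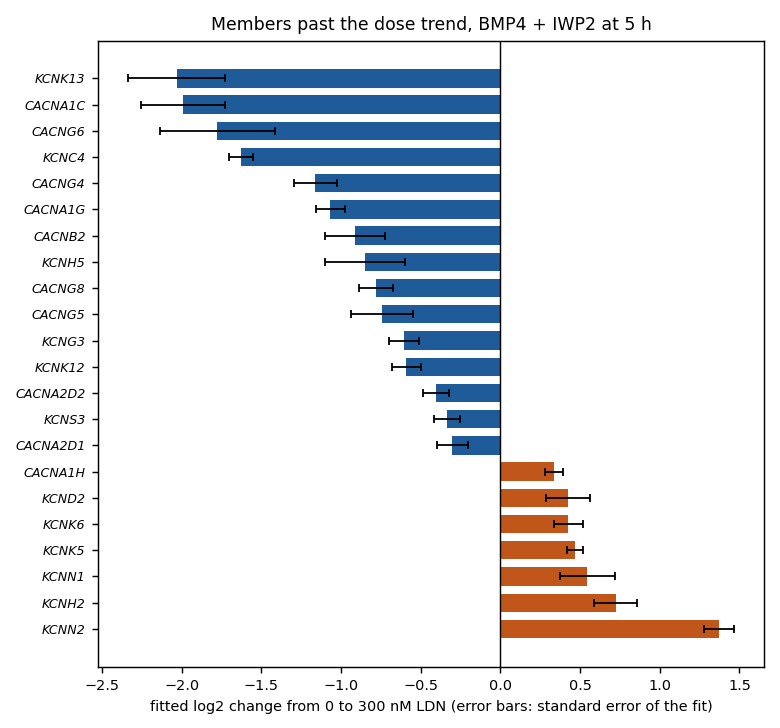
Fitted log2 change from 0 to 300 nM LDN of 22 of the 25 channel genes past the dose trend at 5 h, as bars from 0 with the standard error of the fit. Values run from -2.03 for KCNK13 to 1.37 for KCNN2, with 15 bars below 0 and 7 above.

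KCNC4 had the most precise dose-response of the channel genes. It had 48.5, 38.4, 28.3, 21.6 and 15.7 CPM at 0, 10, 30, 100 and 300 nM LDN, and 15.6 CPM in untreated cells, with a fitted change of -1.63 ± 0.07 (edgeR adjusted p = 3.87e-08). Each higher dose had a lower level, and the 300 nM library was close to the untreated one. CACNA1G followed the same course with 27.7, 24.5, 19.8, 15.6 and 13.8 CPM from 0 to 300 nM and 13.6 CPM in untreated cells (-1.07 ± 0.09, edgeR adjusted p = 3.74e-06). CACNG4 had 26.3, 20.5, 20.9, 15.0 and 11.0 CPM and 12.7 CPM untreated (-1.16 ± 0.13, edgeR adjusted p = 5.47e-05). Both ended within 2 CPM of the untreated library.

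The largest fitted falls were of genes with few counts at 5 h. KCNK13 had 3.09 CPM at 0 nM, 2.43 at 10 nM, 1.23 at 30 nM, 1.06 at 100 nM, 0.842 at 300 nM and 0.939 CPM untreated (-2.03 ± 0.30, edgeR adjusted p = 0.000452). CACNA1C had 5.46, 4.33, 2.51, 2.56 and 1.17 CPM from 0 to 300 nM and 1.01 CPM untreated (-1.99 ± 0.27, edgeR adjusted p = 0.000184). For both genes the drop between 10 and 30 nM was the largest of the 4 steps in CPM. CACNG6 fell from 2.44 to 0.872 CPM (-1.78 ± 0.36, edgeR adjusted p = 0.00367), a call that was lost without the 0 nM library (edgeR adjusted p = 0.095). KCNG3 had 27.2, 23.8, 24.3, 20.0 and 17.5 CPM and 7.45 CPM in untreated cells (-0.60 ± 0.10, edgeR adjusted p = 0.000674), so at 300 nM it was still above the untreated library. KCNK12 had 22.3, 21.7, 19.4, 17.0 and 15.1 CPM and 14.4 CPM untreated (-0.59 ± 0.09, edgeR adjusted p = 0.000531), a small change at 5 h for the gene that was highest at 42 h in the time series.

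**Figure D5:**
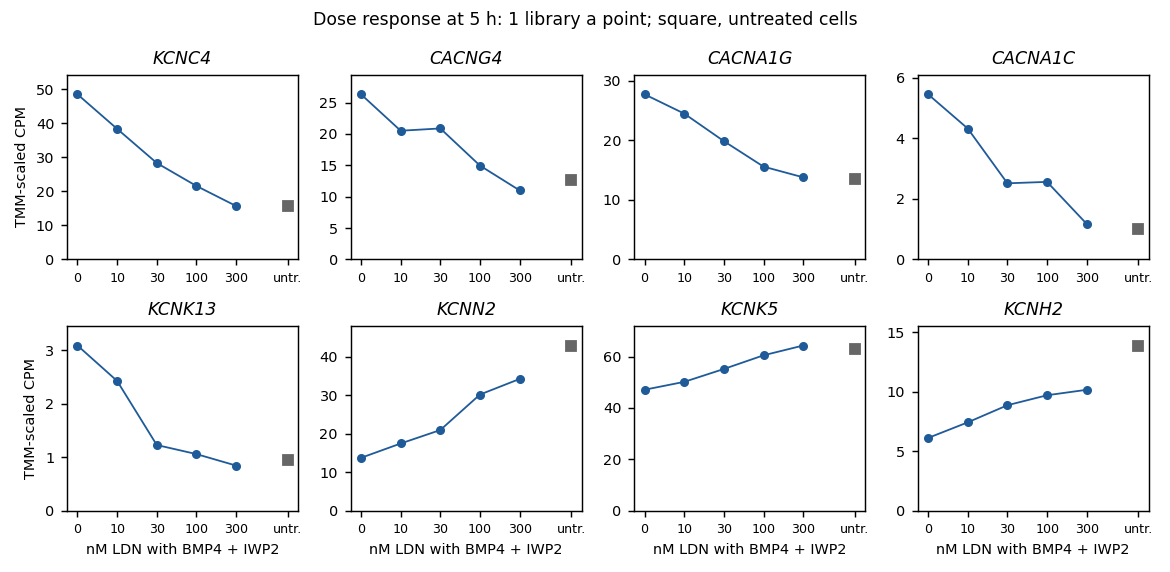
Levels of 8 channel genes at 5 h in TMM-scaled CPM on linear axes from 0, as circles against the LDN dose in even steps with BMP4 and IWP2 and as a square for untreated cells, 1 library a point. KCNC4, CACNG4, CACNA1G, CACNA1C and KCNK13 decline with LDN, and KCNN2, KCNK5 and KCNH2 climb.

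The auxiliary calcium channel and AMPA receptor subunits held 7 of the 17 falls, the most of any family. Of 12 tested CACNA2D, CACNB and CACNG genes, 7 fell with LDN and none rose: CACNG4, CACNG5, CACNG6, CACNG8, CACNB2, CACNA2D1 and CACNA2D2, with fitted changes from -1.78 to -0.30. CACNG8 went from 32.0 to 18.1 CPM and CACNB2 from 5.49 to 2.92 CPM, against 10.6 and 2.01 CPM in untreated cells. Without the 0 nM library, CACNG5, CACNG6, CACNB2 and CACNA2D1 no longer passed (edgeR adjusted p = 0.17, 0.095, 0.11 and 0.56), and CACNA2D1 did not pass without the 10 or 100 nM library either (0.069 and 0.12). Of 8 CACNA1 genes, CACNA1C and CACNA1G fell and CACNA1H rose (47.3 to 58.6 CPM; 0.34 ± 0.06, edgeR adjusted p = 0.00146). In the Kv family 6 of 19 fell, among them KCNC4, KCNG3, KCNH5 and KCNS3, and 3 rose, among them KCND2 and KCNH2. Leaving out the 0 nM library ended the calls of KCNH5, KCNS3 and KCND2 (edgeR adjusted p from 0.085 to 0.46). No sodium channel gene of the 7 tested and no KCNJ gene of the 4 tested passed. KCNS3 went from 22.4 CPM at 0 nM to 17.7 CPM at 300 nM with 25.1 CPM untreated. KCNH5 went from 3.05 to 1.62 CPM with 3.02 CPM untreated, and CACNA2D2 from 35.2 to 27.2 CPM with 33.1 CPM untreated. Of the 17 that fell, 16 were higher without LDN than in untreated cells, and KCNS3 was lower. With the untreated library added after 300 nM as the last dose step, CACNA2D1, CACNA2D2, KCNH5, KCNS3 and KCNN1 were among those not passing.

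KCNN2 had the largest rise with LDN. It had 13.7, 17.4, 20.9, 30.1 and 34.2 CPM at 0, 10, 30, 100 and 300 nM, and 42.9 CPM in untreated cells (1.37 ± 0.10, edgeR adjusted p = 8.97e-07). Each step was above the last, and all 5 libraries with BMP4 were below the untreated one. KCNK5, a leak channel sensitive to acid, went from 47.1 through 50.1, 55.1 and 60.5 to 64.3 CPM with 63.1 CPM untreated (0.47 ± 0.05, edgeR adjusted p = 3.97e-05). KCNH2 rose from 6.11 to 10.2 CPM (0.72 ± 0.14, edgeR adjusted p = 0.00229). KCNN1, KCNK6, KCND2 and CACNA1H also rose, with changes from 0.34 to 0.54. Of these, KCNN1 was called at an edgeR adjusted p of 0.0407 and was not called without the 0, 100 or 300 nM library (0.39, 0.052 and 0.17) or by DESeq2 (0.11), and KCNK6 was not called without the 0 nM library (0.076). KCND2 also lost its call without the 10, 30 or 100 nM library (edgeR adjusted p = 0.062, 0.061 and 0.13). Without the 0 nM library 4 members rose and 11 fell, and without the 100 nM library 5 rose.

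The dose-response and the first hours of the time series share no library, and their values can be set side by side. All 17 members that fell with LDN were above the 0 h mean at 4 h, from 0.10 for CACNA2D1 to 2.25 for KCNK13 on the log2 scale (100.0%), beside 86.1% of the 1607 genes of both tables that fell with LDN. Of the 8 that rose with LDN, 4 were below the 0 h mean at 4 h, among them KCNN2 (-0.72), KCND2 (-0.34) and KCNK5 (-0.19), and 4 were above it. The lower level at 4 h thus held for 50.0% of the members that rose with LDN, beside 83.5% of the 1530 genes that did, and these differences in share were not tested. At later times the 17 differed: 3 were highest at 42 h (CACNG4, CACNG6 and KCNK12), none at 0 h, and the other 14 at 4 to 28 h.

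Untreated cells were compared at 5 h with cells given BMP4, IWP2 and RI and no LDN, by their single libraries and without a test. The latter are called cells with BMP4 here, but the ratios cannot tell BMP4 from what was added with it. More than 1 higher with BMP4 on the log2 scale were 11 of the 61 members, and more than 1 lower were 3, beside 5.26% and 2.42% of all genes. The 11 included CACNA1C (2.33), KCNG3 (1.86), KCNC4, KCNK13, CACNG8, CACNB2, CACNG6, CACNG4, CACNA1G and CACNG5, and the 3 included KCNN2 (-1.64) and KCNH2 (-1.17). Of the members under a mean of 1 CPM in this experiment, KCNT1 (0.470 CPM untreated, 1.48 CPM with BMP4) and KCNH6 (0.403 and 1.06 CPM) were higher with BMP4, and KCNN4 (1.07 and 0.0686 CPM), KCND3 (1.34 and 0.549 CPM) and KCNV1 (0.671 and 0.206 CPM) lower. With BMP4, KCNN4 had 2 counts, under the floor of 3, and KCNV1 had 6. The untreated library was the shallowest and had the largest mitochondrial share of this experiment. It lacked IWP2 as well as BMP4, no RI is named for it, and the part of these in the ratios was not tested.

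Promoter sequences of 4 of these genes are shown because the dose-response bears on them: KCNC4 and CACNG6 fell with LDN and hold the sequence GGCGCC, an element bound by SMAD1 or SMAD5 with SMAD4 in BMP target genes, KCNK13 fell and lacks it, and KCNK5 rose and lacks it. Each is the 250 bases before the gene start in RefSeq (GRCh38.p14), read 5′ to 3′ on the gene's strand, with GGCGCC in capitals, and all 4 windows lie outside annotated exons and outside the gene itself. GGCGCC is its own reverse complement, so 1 search covers both strands. The positions are chr1:110210064-110210313 on the plus strand for KCNC4, chr19:53991387-53991636 on the plus strand for CACNG6, chr14:90061744-90061993 on the plus strand for KCNK13 and chr6:39229476-39229725 on the minus strand for KCNK5.
KCNC4: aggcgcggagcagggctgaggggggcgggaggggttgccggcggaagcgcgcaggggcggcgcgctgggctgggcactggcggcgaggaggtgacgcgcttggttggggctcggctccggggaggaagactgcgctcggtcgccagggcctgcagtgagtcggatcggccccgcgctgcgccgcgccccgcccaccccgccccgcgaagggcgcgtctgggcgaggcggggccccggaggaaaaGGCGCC
CACNG6: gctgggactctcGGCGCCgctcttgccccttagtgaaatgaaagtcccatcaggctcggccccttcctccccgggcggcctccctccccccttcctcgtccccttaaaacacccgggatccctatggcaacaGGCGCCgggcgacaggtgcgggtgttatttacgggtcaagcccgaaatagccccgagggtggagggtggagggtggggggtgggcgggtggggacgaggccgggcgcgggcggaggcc
KCNK13: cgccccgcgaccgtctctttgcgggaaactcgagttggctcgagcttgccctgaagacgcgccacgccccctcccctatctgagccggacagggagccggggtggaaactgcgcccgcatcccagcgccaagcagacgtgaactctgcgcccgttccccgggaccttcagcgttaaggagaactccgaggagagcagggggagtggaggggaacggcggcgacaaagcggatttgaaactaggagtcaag
KCNK5: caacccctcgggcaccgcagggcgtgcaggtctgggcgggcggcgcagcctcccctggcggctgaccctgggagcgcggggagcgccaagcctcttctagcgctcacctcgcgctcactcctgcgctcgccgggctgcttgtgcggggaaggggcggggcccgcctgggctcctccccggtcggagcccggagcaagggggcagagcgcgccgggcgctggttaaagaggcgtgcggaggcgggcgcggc

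The element was present in 17 of the 49 members with a RefSeq promoter (34.7%) and in 26.2% of 11446 promoters of all genes tested. Of the members that fell with LDN, 10 had a promoter in the table and 8 of these held it (80.0%), all but KCNK13 and CACNA2D2. Among those that rose 1 of 6 held it (KCNN1), and among the others 8 of 33 (24.2%). Median GC content was 71.8% for those that fell, 66.8% for those that rose, 66.0% for the others and 65.2% for all promoters, and its part in these counts was not tested. Unlike the 4 windows shown, some of the others lie inside the annotated span of their own gene. Those of CACNA1C and KCNH5, counted among the 8, and of KCNN1 do so. Those of CACNA1E and KCNT2 lie wholly in exons of their gene. For these the window may not be the promoter in use, and their part in the counts was not tested. A match describes the letters of these 250 bases only. Of the 8 that fell and held the element, CACNA2D1, CACNB2, CACNG6, KCNH5 and KCNS3 lost their call without the 0 nM library. The share that holds the element among all genes that fell with LDN is not given here. These counts can thus not set the members apart from such genes.

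Genes that work with these channels were read from a list of 45 auxiliary subunits, pumps and related channels, of which 44 were found. Of 32 tested over time, 10 fell (31.2%) and 3 rose (9.38%) along the line and 23 passed the curve (71.9%), beside 17.5%, 19.2% and 47.7% of all genes tested, with a median fitted change of -0.32. Of 30 tested for dose, 5 fell (16.7%) and 3 rose (10.0%) with LDN, beside 10.9% and 10.4% of all genes tested. NALF1, a partner of the sodium leak channel, fell from 44 CPM at 0 nM to 18.0 CPM at 300 nM with 10.5 CPM untreated (-1.25 ± 0.08, edgeR adjusted p = 6.91e-07), and KCNMB4, a subunit of the large-conductance potassium channel, from 50.0 to 21.8 CPM with 19.5 CPM untreated (-1.19 ± 0.11, edgeR adjusted p = 6.21e-06). In the time series NALF1 went from 10.2 and 9.76 CPM at 0 h to 56.0 CPM at 20 h and KCNMB4 from 17.2 and 17.4 CPM to 67.6 CPM at 12 h, and both passed the curve and not the line. NALF1 and KCNMB4 were named after their values were seen.

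The members are long genes, with a median span of 68.7 kb against 29.4 kb over the genes tested and a median exonic length of 6.91 kb against 5.05 kb. In exons, 30 of 73 overlap another annotated gene, and for 11 that gene reached at least 10% of the member's level. They include KCNK12, KCNQ1 with KCNQ1OT1, CACNA1D with CHDH, CACNB2 with an unnamed gene on the opposite strand and CACNB4 with one on its own strand. Reads there could be counted for either gene, and the strand setting of the counting is not given in the sources used here. The gene that overlaps CACNB2 had 0.825 CPM at 0 h and its highest value, 4.23 CPM, at 4 h, where CACNB2 was highest too. KCNQ1, which passed no test, stayed between 1.45 and 2.01 CPM over time while its antisense RNA KCNQ1OT1 had 101 CPM at 0 h, 182 CPM at 4 h and 68.8 CPM at 42 h. The markers of other cell types given above changed over the same hours as the channel genes, and their part in these results was not tested.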

How the data were processed

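Bulk RNA-seq of 13 libraries was read from count and FPKM tables. As their methods and processing notes state, the authors used Cutadapt for trimming, STAR 2.7.8a for mapping to GRCh38 and RSEM 1.3.3 for counting. The release of the ENSEMBL annotation and the strand setting are not given in the sources used here. The deposited count tables hold expected counts of RSEM, whole numbers not scaled for depth. The deposited FPKM tables hold values the authors scaled for gene length and depth, and they were used to compare levels between genes and as an alternative. Each table had 61546 rows, of which 5 were not human genes (at most 0.00301% of counts) and were left out.

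Genes that averaged 1 CPM or more were tested with edgeR 4.0.16 (TMM, quasi-likelihood test, Benjamini-Hochberg adjustment at 0.05 over all such genes): a line in hours, a curve in hours and hours squared (7 libraries), and a line in LDN steps (5 libraries). Fitted changes are log2 values over 42 h or 4 dose steps, with SE from the F statistic. Ratios of single libraries used TMM-scaled CPM with 0.1 CPM added. DESeq2 1.42.0 and limma 3.58.1 (on log2 FPKM with 0.1 added) served as alternatives, with other scalings, minimums, codings of time and dose, and each library left out. The procedure was tested on simulated data. Positions are from GENCODE on GRCh38 and promoters from RefSeq (GRCh38.p14). Scripts ran in Python 3.11.15 (pandas 2.3.3, numpy 2.4.6, matplotlib 3.10.9) and R 4.3.3.

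The members and gene lists were chosen with earlier results of these data known. Genes named were, per family, the member with the highest mean FPKM and up to 4 with the largest slope among those past a time test, then the members past the dose trend, those past 1 at 5 h and those nearest the minimum. Some genes that this rule names are not reported here and are not drawn, though counts, medians and sums include them. The comparison of 4 h with 0 h was added after the data were seen.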

Additional observations from a re-analysis of the deposited data

How the results depend on the processing

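No paired analysis was possible because only the 0 h libraries carry replicate numbers. The members that fell with time (19) were 11 at a minimum of 2.5 CPM (which tests fewer genes) and 4 with log2 of hours plus 1, and leaving out 1 library gave 9 (without 42 h) to 24. For those that rose (10), leaving out 1 library gave 6 (without 0 h replicate 1) to 10. The members past the time curve (59) ranged from 34 (without 42 h) to 63 (without 4 h). For the dose trend, 17 fell and 8 rose: limma on FPKM gave 6 and 2, the dose in nM 4 and 0 (14 and 7 at an unadjusted p under 0.05), DESeq2 5 that rose, and leaving out 1 library 11 to 17 that fell and 4 to 7 that rose, the lowest without 0 nM. Members more than 1 lower at 4 h than at 0 h (2) were 0 on library totals or with 1 CPM added, 1 on FPKM, and 0 to 2 with 1 of the 0 h libraries. Members more than 1 higher with BMP4 at 5 h (11) were 6 with 1 CPM added. Except as the construction shows, the cause was not tested. No named call reversed its direction under any alternative: 7 of 25 named time calls and 3 of 25 dose calls (CACNG4, KCNC4 and KCNG3) passed under every one. With log2 of hours plus 1, 15 of the 25 named time calls were lost (edgeR adjusted p from 0.062 to 0.34). The shares of all genes under the alternatives are not given here, so the counts of members in this section cannot be set beside them. Depth was not varied, and values near the floor of 3 counts carry a large counting error.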

Other observations

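Some channel genes under the level minimum also had large differences, and those named here were chosen after their values were seen. KCNA4, a pore of the fast A-type current, had 0.0520 and 0.0274 CPM at 0 h, 0.564, 0.848, 2.56 and 1.36 CPM at 12, 20, 28 and 42 h, and at 5 h 0.378 CPM without LDN against at most 0.0320 CPM at 10 to 300 nM and 0 counts in untreated cells. Most of these dose-response values are at or under the floor of 3 counts. KCNA1 had 1.38 and 0.986 CPM at 0 h and 0.0189 CPM at 42 h, KCNA3 1.43 and 1.07 CPM and then 0.0567 CPM, and SCN4B, an auxiliary sodium channel subunit, 1.3 and 1.15 CPM and then 0.0756 CPM. All 3 fell along the line in the fit without a minimum (edgeR adjusted p = 0.00148, 0.000453 and 0.000718).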
